A study of Homo sapiens with 9 samples.

Results

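The genes described here encode the F-box proteins of human cells together with the scaffold and the regulators of the ligases these proteins serve. They were chosen by name: every gene symbol made of FBXL, FBXW or FBXO followed only by digits, which gave 62 genes, and 13 genes listed separately (SKP1, SKP2, CUL1, RBX1, CCNF, BTRC, KDM2A, KDM2B, CAND1, CAND2, COPS5, UBE2M and NEDD8). That made 75 of 61155 symbols in the count files. Of the 75 genes, 67 encode F-box proteins (17 FBXL, 36 FBXO, 9 FBXW and 5 with another symbol) and 8 encode the core or its regulators. RNA of MDA-MB-231, an established human cell line of the basal-like breast cancer type, was sequenced from FBXL12 knockout clone KO1 (3 libraries), FBXL12 knockout clone KO2 (3 libraries) and FBXL12-WT control cells carrying a scrambled control guide RNA (WT, 3 libraries). Each knockout group is 1 clone, and both clones were compared with the same WT libraries. The question was whether other members of the family changed in level when FBXL12 was disrupted.

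An SCF ligase attaches ubiquitin to other proteins. CUL1 is its scaffold, RBX1 at one end brings in the ubiquitin-charged enzyme, and SKP1 at the other end holds an F-box protein, which binds the substrate. Since F-box proteins take turns on the same SKP1 and CUL1, the ligase's targets depend on which of them are present; FBXL proteins bind substrates through leucine-rich repeats, FBXW proteins through WD40 repeats, and FBXO proteins through other domains. NEDD8, a small protein like ubiquitin, switches CUL1 on when UBE2M attaches it; the COP9 signalosome, whose catalytic subunit is COPS5, takes it off, and CAND1 then helps to exchange one F-box protein for another.

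The libraries held 52427841 to 97243363 counts assigned to genes. The mesenchymal markers of this line (VIM, CD44, AXL, CAV1 and EGFR) were high in all 9 libraries, with summed levels of 7178 to 7244 CPM (counts scaled to library size) in KO1, 8379 to 8565 CPM in KO2 and 6663 to 7059 CPM in WT. Of the luminal or hormone receptor markers, PGR was at 0 in all 9 libraries, and ESR1 was at most 0.155 CPM. The others of that list were higher. ERBB2 averaged 63.2 CPM in KO1, 61.5 CPM in KO2 and 75.5 CPM in WT. In the same order, GATA3 averaged 6.4, 4.69 and 5.75 CPM, and FOXA1 3.85, 2.74 and 3.9 CPM. The summed leukocyte and endothelial markers stayed under 1 CPM. PTPRC was at most 0.226 CPM, CD14 0.781 CPM, CDH5 0.212 CPM and PECAM1 0.751 CPM. Summed fibroblast markers were higher, at 2.51 to 3.56 CPM in KO1, 2.47 to 2.71 CPM in KO2 and 3.32 to 4.53 CPM in WT. Most of that sum was COL1A1, at most 4.52 CPM. EPCAM, an epithelial adhesion gene, differed between the clones, at 4.05 to 5.17 CPM in KO1, 0.534 to 1.03 CPM in KO2 and 1.54 to 2.10 CPM in WT. Its part in the results below was not tested.

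FBXL12, the disrupted gene, was lower in both clones, and it was not absent. It read 9.56, 9.95 and 9.40 CPM in KO1, 6.14, 6.36 and 5.33 CPM in KO2, and 22.2, 23.3 and 21.4 CPM in WT. The 3 groups did not overlap, with KO2 lowest. The KO1 mean was 43.2% of WT and the KO2 mean 26.7%. On the log2 scale FBXL12 fell by 1.21 ± 0.08 (SE) in KO1 (adjusted p = 2.6e-08, edgeR's quasi-likelihood test with Benjamini-Hochberg adjustment over all 17759 tested genes, which gives all adjusted p-values below) and by 1.91 ± 0.08 in KO2 (adjusted p = 7.3e-11). KO1 was above KO2 by 0.70 ± 0.08 (adjusted p = 3.3e-06). In bulk RNA, a lower level in each cell and fewer cells carrying the transcript cannot be told apart. Separate cultures are not stated for the 3 libraries of a group, and the p-values therefore rest on a spread between libraries that may be technical. FBXL12 lies on chromosome 19 (9810267 to 9827816, minus strand, GRCh38), and the median over its 20 nearest expressed neighbours was -0.38 (log2) for KO1 and -0.78 for KO2. With the GC trend of each library removed (the dependence of counts on the GC content of exons), FBXL12 was at -0.98 in KO1 and -1.64 in KO2, and its neighbours at -0.29 and -0.59. The promoter window of the disrupted gene is given here from RefSeq (GRCh38.p14, chr19:9819030-9819329, minus strand, 5′ to 3′, from 250 bases before to 50 bases after the start), with each CG dinucleotide, the site of DNA methylation, in capitals.
FBXL12: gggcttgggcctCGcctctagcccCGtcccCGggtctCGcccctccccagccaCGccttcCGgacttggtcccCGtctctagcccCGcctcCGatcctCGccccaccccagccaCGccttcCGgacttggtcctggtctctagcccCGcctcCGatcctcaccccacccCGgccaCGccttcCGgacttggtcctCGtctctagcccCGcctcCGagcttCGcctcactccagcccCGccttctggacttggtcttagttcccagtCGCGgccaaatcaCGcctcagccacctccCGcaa
The window held 26 CG, against a median of 14 over 35116 such windows, and 30.1% of them held at least as many. Promoter methylation was not measured in this study.

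Of the 75 genes, 69 had enough counts to be tested. The untested ones were FBXO2, FBXO24, FBXO40, FBXO47, FBXW10 and FBXW12, none of which had more than 10 counts in a library. In KO1, 12 of the 69 rose, 10 fell and 47 did not pass the test, where 18.0% of all tested genes rose and 16.8% fell. Those were 17.4% and 14.5% of the tested genes of the family, near the share among all genes. In KO2, 19 rose, 24 fell and 26 did not pass the test, where 24.7% of all tested genes rose and 24.7% fell; the family's shares were 27.5% and 34.8%. The median log2 change of the 69 genes was 0.00 in KO1 and -0.01 in KO2, the same as over all tested genes. Between the clones, 23 genes were higher in KO1 than in KO2 and 21 were lower, where 23.9% of all tested genes were higher and 24.9% lower; the shares in the family were 33.3% and 30.4%. On the log2 scale, 3 genes passed 1 in either direction in KO1 and 10 in KO2, FBXL12 included, whether or not they passed the test. In KO1 they include FBXO44 (1.16, adjusted p = 0.281), which had 13 reads there. FBXO44 is also counted among the genes that rose in KO2, and it passed the count filter only through the KO2 libraries. The share of all tested genes that passed 1 was not computed. The numbers of genes called in KO1 depended on single libraries. Without KO1 replicate 1, 19 rose, and without WT replicate 1 or without KO1 replicate 3, 6 fell.

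The summed level of the F-box transcripts differed little between groups. Per kilobase of exon, the 66 F-box genes other than FBXL12 summed to 337, 339 and 339 CPM per kb in KO1, 332, 333 and 334 in KO2, and 327, 334 and 339 in WT. Every knockout value lay between the lowest and the highest WT value. FBXL12 itself made up 0.969% ± 0.0276 of that pool in KO1, 0.609% ± 0.0571 in KO2 and 2.24% ± 0.115 in WT (SD, n = 3 each). By subfamily, the other FBXL genes summed to 54.9 ± 0.0825 CPM per kb in KO1, 53.5 ± 0.494 in KO2 and 55.9 ± 0.773 in WT (SD, n = 3 each). The FBXO genes summed to 179 ± 3.77 in KO1, 179 ± 1.54 in KO2 and 171 ± 2.97 in WT. The FBXW genes summed to 55.6 ± 1.81 in KO1, 49.9 ± 1.09 in KO2 and 55.5 ± 2.67 in WT. These sums are descriptions and were not tested.

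**Figure D1:**
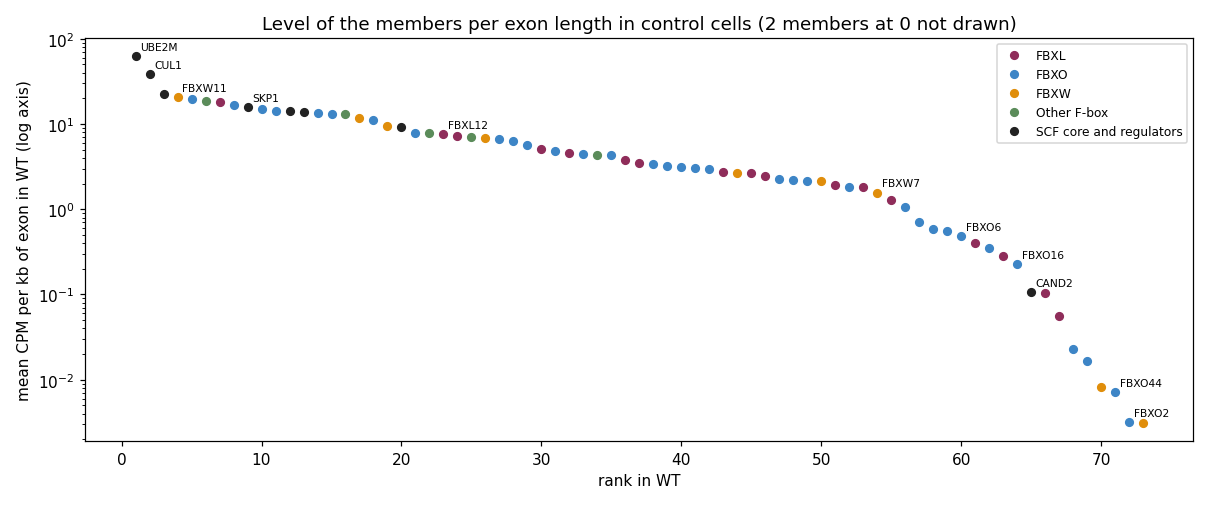
Mean level of each gene in the 3 WT libraries, in CPM per kilobase of exon (y axis, log scale), by rank (x axis) and coloured by family. UBE2M leads at 62.5 CPM per kb, FBXL12 is at rank 23 with 7.66, and the lowest genes drawn are under 0.01.

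In control cells UBE2M, CUL1 and RBX1 led the order of levels per exon length. UBE2M had a mean level of 62.5 CPM per kb in WT, CUL1 38.9 and RBX1 22.6. SKP1, at rank 9 with 15.9, and NEDD8, at rank 12 with 14.2, stood below several F-box genes. The order depends on annotation, since the length takes in all annotated exon bases, 12771 for SKP1 and 1831 for UBE2M. Without division by length, SKP1 was above UBE2M in WT, at mean levels of 203 and 114 CPM. The F-box genes with the highest levels were FBXW11 at 20.9 CPM per kb (beta-TrCP2, which binds phosphorylated beta-catenin and the NF-kappaB inhibitor) and FBXO28 at 19.9. FBXL12 stood at rank 23 of 75 with 7.66 CPM per kb, next below CCNF at 7.89. FBXW7, which binds cyclin E and MYC, was at rank 54 with 1.57 CPM per kb. FBXO40 and FBXO47 had no count in WT.

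The common parts of the ligase, SKP1, CUL1, RBX1 and NEDD8, changed little: 0 of the 4 were called by edgeR or by DESeq2 in either clone, and 1 (CUL1 in KO1) had an unadjusted p under 0.05. SKP1, the adaptor, read 203, 238 and 215 CPM in KO1, 198, 193 and 199 CPM in KO2, and 206, 203 and 201 CPM in WT. Its log2 change was 0.10 in KO1 (95% interval 0.00 to 0.21) and -0.05 in KO2 (-0.15 to 0.06), and KO1 was above KO2 by 0.15 (adjusted p = 0.0194). CUL1 changed by 0.10 (0.01 to 0.19) in KO1 and 0.02 (-0.07 to 0.11) in KO2, RBX1 by -0.04 (-0.19 to 0.11) and -0.08 (-0.23 to 0.07), and NEDD8 by 0.18 (-0.02 to 0.37) and 0.08 (-0.12 to 0.28). Their adjusted p-values in KO1 were 0.118 for SKP1, 0.0712 for CUL1, 0.697 for RBX1 and 0.159 for NEDD8. Without KO1 replicate 1, SKP1 and CUL1 were called up in KO1, at 0.17 and 0.14, and with the GC trend removed SKP1 was called down in KO2, at -0.09. With all genes that had at least 1 count in the fit, NEDD8 was called up in KO1 (0.18, adjusted p = 0.00676). NEDD8 shares 12.6% of its exon bases with the read-through gene NEDD8-MDP1, so reads can be split between them.

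UBE2M, the enzyme that attaches NEDD8 to CUL1, was lower in both clones. It read 93.5, 76.8 and 91.2 CPM in KO1, 102, 97.2 and 89.8 CPM in KO2, and 108, 122 and 113 CPM in WT. All 6 knockout libraries lay below the WT libraries. The log2 change was -0.39 ± 0.08 in KO1 (adjusted p = 0.00181) and -0.25 ± 0.08 in KO2 (adjusted p = 0.0174). With the GC trend removed it was -0.15 in KO1 (adjusted p = 0.00217) and 0.04 in KO2 (adjusted p = 0.328), so the KO2 fall depended on that setting. The KO2 call was also lost without WT replicate 2 (-0.20) and without KO2 replicate 3 (-0.20).

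The genes of F-box exchange and NEDD8 removal gave small values. CAND1, the exchange factor, rose by 0.14 ± 0.04 in KO2 (adjusted p = 0.0175) and was at 0.07 in KO1 (adjusted p = 0.233). That call was lost without WT replicate 2 (0.13) and without KO2 replicate 3 (0.10), and without KO1 replicate 1 CAND1 was called in KO1 (0.12). CAND2, its low-level relative known from muscle, had mean levels of 0.618 CPM in KO1, 0.348 CPM in KO2 and 0.603 CPM in WT. Its log2 change was -0.83 ± 0.28 in KO2 (adjusted p = 0.0211), and it was not called with the GC trend removed (-0.58), without WT replicate 1 (-0.63) or without KO2 replicate 3 (-0.62). COPS5 was at -0.14 ± 0.05 in KO1 (adjusted p = 0.036) and 0.09 in KO2 (adjusted p = 0.149), with KO1 below KO2 by 0.24 on the log2 scale (-0.24, adjusted p = 0.00109). The KO1 call of COPS5 was lost under several settings, among them DESeq2 (adjusted p = 0.0524) and the omission of WT replicate 1, 2 or 3 or of KO1 replicate 1 or 3 (-0.16 to -0.10), and also without KO2 replicate 1 (-0.14).

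Of the 5 F-box genes with another symbol, 1 rose and 2 fell in KO1, and 2 rose and 2 fell in KO2. Among all tested genes, 18.0% rose and 16.8% fell in KO1, and 24.7% rose and 24.7% fell in KO2. SKP2, which recognises the cell-cycle inhibitor p27, read 64.1, 65.0 and 63.9 CPM in KO1, 65.0, 65.9 and 66.8 CPM in KO2, and 73.2, 69.4 and 72.0 CPM in WT. Both clones lay below WT in every library. The log2 changes were -0.15 ± 0.04 in KO1 (adjusted p = 0.0106) and -0.12 ± 0.04 in KO2 (adjusted p = 0.0313). The KO2 value was not called with upper quartile scaling (-0.08, adjusted p = 0.143). The SKP2 calls did not hold without WT replicate 1 or 3 in either clone (-0.14 to -0.10), without KO1 replicate 3 (-0.14 in KO1, -0.12 in KO2), or, in KO2, without KO2 replicate 1 or 2 (-0.12). KDM2A, a histone demethylase that binds unmethylated CpG islands, read 152, 140 and 149 CPM in KO1, 148, 145 and 151 CPM in KO2, and 130, 136 and 137 CPM in WT. It rose by 0.13 ± 0.04 in KO1 (adjusted p = 0.0277) and 0.14 ± 0.04 in KO2 (adjusted p = 0.0155), with no overlap with WT. The KDM2A calls were lost without WT replicate 1 in both clones (0.12), without KO1 replicate 3 in KO1 (0.13) and without KO2 replicate 1 or 3 in KO2 (0.12 to 0.13). KDM2B, its close relative, stayed at -0.06 in KO1 (adjusted p = 0.421) and fell by 0.51 ± 0.06 in KO2 (adjusted p = 2.0e-06), to 42.4, 42.8 and 40.0 CPM in KO2, against 56.9, 62.4 and 59.5 CPM in WT.

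BTRC (beta-TrCP1) rose by 0.27 ± 0.05 in KO2 (adjusted p = 1.6e-04) and was at 0.05 in KO1 (adjusted p = 0.407). It read 48.2, 49.1 and 49.6 CPM in KO1, 58.5, 56.1 and 56.6 CPM in KO2, and 47.1, 45.5 and 48.9 CPM in WT. KO2 stood above the other groups in every library. Its paralog FBXW11 read 135, 138 and 134 CPM in KO1, 129, 128 and 129 CPM in KO2, and 113, 113 and 124 CPM in WT. FBXW11 rose in both clones, by 0.22 ± 0.04 in KO1 (adjusted p = 0.00119) and 0.14 ± 0.04 in KO2 (adjusted p = 0.012); the KO2 call was lost without WT replicate 1 or 2 or KO2 replicate 1 (0.12 to 0.13). CCNF, cyclin F, fell by 0.26 ± 0.07 in KO1 (adjusted p = 0.0103), a call lost without WT replicate 2 (-0.20), and was at -0.01 in KO2 (adjusted p = 0.936). Its GC-removed values were -0.12 in KO1 (adjusted p = 0.023) and 0.14 in KO2 (adjusted p = 0.00517).

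Among the other FBXL genes, the one with the same call in both clones upward was FBXL13. FBXL13, reported to act on a centrosomal protein, read 13.1, 14.1 and 12.8 CPM in KO1, 13.7, 15.1 and 15.3 CPM in KO2, and 10.1, 9.72 and 9.82 CPM in WT. All 6 knockout libraries lay above WT. It rose by 0.43 ± 0.07 in KO1 (adjusted p = 3.4e-04) and 0.57 ± 0.07 in KO2 (adjusted p = 1.2e-05), while its neighbours on chromosome 7 had GC-removed medians of -0.07 and -0.02. In all, 1 of the 17 FBXL genes rose and 3 fell in KO1, and 4 rose and 8 fell in KO2, FBXL12 included. Over all tested genes, 18.0% rose and 16.8% fell in KO1, and 24.7% rose and 24.7% fell in KO2.

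FBXL6, FBXL18 and FBXL19 carried the larger changes among the well-detected FBXL genes. FBXL6 read 15.1, 10.4 and 13.6 CPM in KO1, 8.40, 9.35 and 7.43 CPM in KO2, and 16.9, 18.6 and 15.6 CPM in WT. The groups did not overlap. It fell by 0.38 ± 0.13 in KO1 (adjusted p = 0.0338) and by 1.02 ± 0.13 in KO2 (adjusted p = 3.9e-05), and its neighbours had medians of -0.41 and -0.87. GC-removed values of FBXL6 were -0.02 in KO1 (adjusted p = 0.841) and -0.54 in KO2 (adjusted p = 6.9e-07). The KO1 call of FBXL6 was also lost without WT replicate 1 (-0.38) or 2 (-0.31), without KO1 replicate 2 (-0.24) or 3 (-0.41), without KO2 replicate 1 (-0.38) and with the replicate block (-0.38), and 31.7% of its exon bases overlap SLC52A2 on the other strand. FBXL18 read 14.5, 10.6 and 13.0 CPM in KO1, 23.3, 24.2 and 20.5 CPM in KO2, and 17.6, 22.0 and 18.7 CPM in WT. KO1 lay below both other groups. It fell by 0.61 ± 0.11 in KO1 (adjusted p = 0.00142) and was at 0.23 in KO2 (adjusted p = 0.121). GC-removed values of FBXL18 were -0.33 in KO1 (adjusted p = 3.2e-05) and 0.57 in KO2 (adjusted p = 5.4e-09). The KO2 value was also called with all genes that had at least 1 count (0.21), in the fit of the 2 groups alone (0.22), without WT replicate 2 (0.32) and without KO1 replicate 2 (0.22). FBXL19, which carries a zinc finger for unmethylated CpG, fell by 0.82 ± 0.16 in KO2 (adjusted p = 0.00236) and was at -0.28 in KO1 (adjusted p = 0.214), where it was called with all genes that had at least 1 count (-0.27, adjusted p = 0.014). Without the GC trend it was at -0.31 in KO2 (adjusted p = 1.5e-04).

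Further FBXL changes were seen in KO2. FBXL17, which clears wrongly paired BTB proteins, rose by 0.44 ± 0.08 (adjusted p = 2.8e-04), to 26.7, 27.7 and 32.9 CPM in KO2, against 21.3, 19.9 and 23.0 CPM in WT. FBXL2 fell by 0.34 ± 0.08 (adjusted p = 0.00188) and FBXL20, its close paralog, by 0.43 ± 0.07 (adjusted p = 1.0e-04); they were at -0.10 and -0.10 in KO1 (adjusted p = 0.34 and 0.272). FBXL5, the iron sensor that removes IRP2, was named after its values were seen as a well-known member. It was at 0.10 in KO1 (adjusted p = 0.115) and -0.05 in KO2 (adjusted p = 0.401); it was called up in KO1 without KO1 replicate 1 (0.15) and down in KO2 with the GC trend removed (-0.10, adjusted p = 0.00919). FBXL16, an F-box protein that does not bind CUL1, was chosen after its values were seen: it read 1.01, 0.804 and 0.962 CPM in KO2 against 0.346, 0.559 and 0.334 CPM in WT, and rose by 1.18 ± 0.27 in KO2 (adjusted p = 0.00188), while KO1 was at 0.05 (adjusted p = 0.918).

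Of the 7 tested FBXW genes, 1 rose and 1 fell in KO1, and 2 rose and 3 fell in KO2. The shares of all tested genes were 18.0% up and 16.8% down in KO1, and 24.7% up and 24.7% down in KO2. FBXW9 fell in both clones. It read 2.86, 2.43 and 2.69 CPM in KO1, 2.39, 2.53 and 1.78 CPM in KO2, and 4.59, 5.18 and 3.88 CPM in WT. The knockout libraries all lay below WT, and the clones overlapped each other. It fell by 0.77 ± 0.14 in KO1 (adjusted p = 6.6e-04) and 1.03 ± 0.15 in KO2 (adjusted p = 3.6e-05). Removal of the GC trend left -0.45 (adjusted p = 0.00373) and -0.62 (adjusted p = 1.6e-04), and the KO2 median of its neighbours was -0.56. FBXW9 lies on chromosome 19 as FBXL12 does, 2860 kb away. Its level was also the most like that of FBXL12 over the 9 libraries, with a Pearson correlation of log2 CPM of 0.95, followed by FBXL6 at 0.90, FBXL20 at 0.88, FBXL2 at 0.87 and FBXO25 at 0.87; these points share their group structure and are a description.

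Falls in KO2 were also seen for FBXW5 and FBXW8. FBXW5, which can also serve CUL4 ligases, read 20.6, 27.0 and 19.2 CPM in KO2 and 32.1, 44.4 and 38.3 CPM in WT, and fell by 0.78 ± 0.20 (adjusted p = 0.0156); KO1 was at -0.35 (adjusted p = 0.222). Removing the GC trend put FBXW5 at -0.24 in KO2, and the call was lost without KO2 replicate 3 (-0.68). FBXW8, the F-box partner of CUL7, and FBXO21, 111 kb away on chromosome 12, were chosen after their values were seen. They fell in KO2 by 0.44 ± 0.05 (adjusted p = 7.3e-06) and 0.40 ± 0.05 (adjusted p = 4.7e-06), where their shared neighbourhood had a GC-removed median of -0.29. In KO1 they were at -0.03 (adjusted p = 0.664) and 0.05 (adjusted p = 0.461). FBXW7, named after its values were seen as a well-known member, was at 0.16 in KO1 (adjusted p = 0.0949) and 0.18 in KO2 (adjusted p = 0.052). It was called up in KO1 without KO1 replicate 1 (0.22), and in KO2 with upper quartile scaling (0.21), with a minimum of 1 CPM in 3 libraries (0.19), in the fit of the 2 groups alone (0.18), without KO1 replicate 1 (0.18) and without KO2 replicate 2 (0.22).

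FBXO6, FBXO17, FBXO27 and FBXO44, of the FBXO branch known for binding sugar chains on glycoproteins, rose in KO2, as did 24.7% of all genes tested. This branch, whose F-box-associated domain grips misfolded glycoproteins or is related to one that does, comprises FBXO2, FBXO6, FBXO17, FBXO27 and FBXO44; the branch was singled out after its values were seen, so nothing is read from their number, and FBXO6 and FBXO44 fall outside the naming rule. NCCRP1, a relative with another form of symbol, was too low to be tested, as was FBXO2. FBXO27 read 45.3, 43.7 and 43.0 CPM in KO1, 66.7, 63.5 and 63.4 CPM in KO2, and 35.0, 38.9 and 38.9 CPM in WT. The 3 groups did not overlap. It rose by 0.23 ± 0.05 in KO1 (adjusted p = 0.00381) and 0.78 ± 0.05 in KO2 (adjusted p = 1.4e-08), with KO1 below KO2 (-0.55, adjusted p = 3.9e-07). Removing the GC trend put FBXO27 at 0.42 in KO1 (adjusted p = 1.7e-06). FBXO17, 14.8 kb away on chromosome 19, read 11.2, 10.8 and 10.8 CPM in KO1, 20.0, 19.4 and 19.4 CPM in KO2, and 10.7, 10.4 and 11.5 CPM in WT. KO2 stood apart, and KO1 overlapped WT. Its log2 change was 0.85 ± 0.07 in KO2 (adjusted p = 7.2e-08) and 0.01 ± 0.07 in KO1 (adjusted p = 0.945), where it was called with the GC trend removed (0.23, adjusted p = 0.0208).

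FBXO6 and FBXO44 lie side by side on chromosome 1, and both rose in KO2 at low levels. FBXO6 read 1.27, 1.23 and 0.917 CPM in KO1, 2.74, 3.76 and 2.35 CPM in KO2, and 1.08, 0.855 and 0.715 CPM in WT. KO2 lay above every other library, and KO1 overlapped WT. It rose by 1.72 ± 0.21 in KO2 (adjusted p = 6.2e-06) and was at 0.34 ± 0.22 in KO1 (adjusted p = 0.249; 0.52 and adjusted p = 0.0471 with the GC trend removed). FBXO44 had 4, 3 and 6 counts in KO1, 41, 50 and 22 counts in KO2, and 1, 3 and 1 counts in WT. Set against library totals, the summed counts were 27.7 times WT in KO2 (95% exact interval 11.5 to 86.8) and 2.36 times WT in KO1 (0.788 to 8.44), intervals that cover counting error only. The adjusted p was 5.7e-06 in KO2 and 0.281 in KO1. FBXO44 passed the count filter only through its KO2 libraries, the group where it was high. Its p-values are therefore a description, and nothing is read from its having been tested. FBXO2, the third gene of the cluster, had 2 counts in KO1, 3 counts in KO2 and 2 counts in WT, summed over libraries, and was not tested. The 20 neighbours of this cluster had GC-removed medians of -0.03 in KO1 and 0.07 in KO2, and those of FBXO17 and FBXO27 had medians of -0.06 and -0.02.

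The promoter windows of these genes show how the cluster is laid out (RefSeq, GRCh38.p14, 5′ to 3′ on each gene's strand, CG in capitals). FBXO44 (chr1:11654157-11654456, plus strand) and FBXO2 (chr1:11654380-11654679, minus strand) lie on opposite strands, and their windows share 77 bases. Their 5′ ends overlap, so each gene is first read across the start of the other. FBXO6 (chr1:11663950-11664249, plus strand) starts downstream of FBXO44, and FBXO27 (chr19:39032500-39032799, minus strand) is shown as the branch's gene with the highest level.
FBXO44: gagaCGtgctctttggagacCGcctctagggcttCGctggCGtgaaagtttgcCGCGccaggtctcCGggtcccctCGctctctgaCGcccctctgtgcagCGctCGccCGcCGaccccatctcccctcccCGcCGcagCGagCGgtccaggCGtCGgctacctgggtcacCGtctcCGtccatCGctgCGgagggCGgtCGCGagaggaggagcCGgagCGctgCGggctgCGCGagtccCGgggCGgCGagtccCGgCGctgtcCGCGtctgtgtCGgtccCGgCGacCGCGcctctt
FBXO2: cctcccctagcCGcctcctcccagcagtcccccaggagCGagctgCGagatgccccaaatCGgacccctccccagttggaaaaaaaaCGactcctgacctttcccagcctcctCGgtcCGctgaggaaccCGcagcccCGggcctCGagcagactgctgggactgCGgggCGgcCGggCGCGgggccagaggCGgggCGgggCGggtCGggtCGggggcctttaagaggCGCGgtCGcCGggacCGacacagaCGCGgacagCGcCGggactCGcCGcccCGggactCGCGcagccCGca
FBXO6: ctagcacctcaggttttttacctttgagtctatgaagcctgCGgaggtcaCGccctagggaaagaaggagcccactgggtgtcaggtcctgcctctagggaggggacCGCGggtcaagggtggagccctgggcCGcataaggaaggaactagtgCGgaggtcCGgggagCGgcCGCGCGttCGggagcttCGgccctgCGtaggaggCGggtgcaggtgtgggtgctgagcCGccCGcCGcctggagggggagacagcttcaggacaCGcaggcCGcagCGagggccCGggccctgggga
FBXO27: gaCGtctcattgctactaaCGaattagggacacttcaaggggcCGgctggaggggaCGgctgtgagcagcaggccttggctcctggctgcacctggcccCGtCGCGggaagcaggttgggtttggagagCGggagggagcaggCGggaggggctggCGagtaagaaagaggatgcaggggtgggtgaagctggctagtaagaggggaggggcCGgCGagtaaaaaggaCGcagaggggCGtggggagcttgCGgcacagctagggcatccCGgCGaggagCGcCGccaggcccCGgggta
The FBXO44 window held 43 CG, more than nearly all windows, since 4.98% of windows held at least as many. The FBXO2 window held 35 CG (14.1% held at least as many), FBXO6 22 (37.7%) and FBXO27 20 (41.2%). The starts of FBXO44 and FBXO2 thus lie within 1 CG-rich stretch, and FBXO44 had 41, 50 and 22 counts in KO2 while FBXO2 had at most 2 counts in any library. Their exons overlap over 7.57% of FBXO44 on opposite strands, where reads could be assigned to either gene if strand was not used. Neither CACGTG (an E-box, in 7.26% of all windows on either strand) nor TATAAA (11.5%) occurred in these windows or in those of FBXL12 and FBXO39. That says only that these letters are not in the windows. RefSeq windows were at hand for 59 of the 75 genes.

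FBXO32 moved in opposite directions in the clones. FBXO32, atrogin-1, is known for driving protein loss in wasting muscle. It read 32.4, 32.8 and 34.0 CPM in KO1, 10.5, 10.9 and 11.4 CPM in KO2, and 16.7, 16.8 and 16.9 CPM in WT. WT lay between the clones with no overlap. FBXO32 rose by 0.98 ± 0.06 in KO1 (adjusted p = 1.3e-08) and fell by 0.62 ± 0.06 in KO2 (adjusted p = 6.5e-07), and the difference of KO1 over KO2 was 1.60 ± 0.06 (adjusted p = 1.1e-11). Its neighbours had GC-removed medians of 0.02 in KO1 and -0.23 in KO2.

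FBXO39, chosen after its values were seen, was high in KO1. It read 2.95, 3.58 and 3.42 CPM in KO1, 0.899, 0.668 and 0.773 CPM in KO2, and 1.15, 1.10 and 0.810 CPM in WT. KO1 stood apart, while KO2 overlapped WT. It rose by 1.69 ± 0.16 in KO1 (adjusted p = 1.6e-06), was at -0.41 ± 0.19 in KO2 (adjusted p = 0.0836) and was higher in KO1 than in KO2 by 2.10 ± 0.17 (adjusted p = 6.2e-08). The KO2 value was called without WT replicate 3 (-0.54) and with the GC trend removed (-0.45, adjusted p = 0.0445). Its neighbours had a GC-removed median of -0.02 in KO1. As the FBXO gene with the largest called rise in KO1, its promoter window is shown (chr17:6775965-6776264, plus strand, 26 CG, RefSeq, GRCh38.p14).
FBXO39: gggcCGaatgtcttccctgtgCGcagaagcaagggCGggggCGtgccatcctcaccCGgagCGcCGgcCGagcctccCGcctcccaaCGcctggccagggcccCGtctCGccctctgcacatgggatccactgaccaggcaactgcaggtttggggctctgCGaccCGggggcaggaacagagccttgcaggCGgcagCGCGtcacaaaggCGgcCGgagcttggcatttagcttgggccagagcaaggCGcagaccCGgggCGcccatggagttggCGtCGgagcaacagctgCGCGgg

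FBXO36 was high in KO2. It read 2.71, 2.76 and 2.69 CPM in KO1, 6.98, 7.19 and 8.60 CPM in KO2, and 2.53, 2.96 and 2.91 CPM in WT. KO2 stood apart, and KO1 lay within WT. It rose by 1.44 ± 0.11 in KO2 (adjusted p = 5.6e-08) and was at -0.04 in KO1 (adjusted p = 0.84). FBXO36 lies on chromosome 2 (229922302 to 230013109), where its neighbours were also up in KO2, with a GC-removed median of 0.53 beside 1.40 for the gene. FBXO10, which recognises BCL2, rose by 0.53 ± 0.12 in KO2 (adjusted p = 0.00167), to 4.86, 4.83 and 5.44 CPM in KO2 against 3.43, 4.01 and 3.05 CPM in WT, and was at -0.14 in KO1 (adjusted p = 0.407). It shares 48.0% of its exon bases with another annotated gene on the same strand, so its reads may be split.

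FBXO11, which recognises BCL6, and FBXO48 were higher in both clones. FBXO11 read 57.2, 60.3 and 59.6 CPM in KO1, 51.6, 51.7 and 55.5 CPM in KO2, and 46.4, 46.6 and 49.3 CPM in WT. It rose by 0.32 ± 0.05 in KO1 (adjusted p = 1.6e-04) and 0.16 ± 0.05 in KO2 (adjusted p = 0.0158). The KO2 call was lost without WT replicate 1 (0.15) or 2 (0.14) and without KO2 replicate 3 (0.12), and 25.2% of its exon bases overlap MSH6 on the other strand. FBXO48 read 7.83, 8.49 and 8.29 CPM in KO1, 7.25, 7.01 and 7.84 CPM in KO2, and 6.41, 5.92 and 5.67 CPM in WT. It rose by 0.45 ± 0.09 in KO1 (adjusted p = 0.00104) and 0.29 ± 0.09 in KO2 (adjusted p = 0.0127), the KO2 call being lost without WT replicate 3 (0.25) or KO2 replicate 3 (0.24). For both genes every knockout library lay above WT. Their neighbours had medians of 0.17 in KO1 and 0.11 in KO2 for FBXO11, and of 0.15 and 0.20 for FBXO48. With the GC trend removed, FBXO11 was at 0.22 in KO1 and 0.11 in KO2, and FBXO48 at 0.36 and 0.25. FBXO7, a gene of inherited parkinsonism chosen after its values were seen, rose by 0.12 ± 0.04 in KO1 (adjusted p = 0.0277) and 0.23 ± 0.04 in KO2 (adjusted p = 2.0e-04); the KO1 call was lost with the GC trend removed (0.07), without WT replicate 1 (0.12) and without KO1 replicate 3 (0.13).

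Downward changes among FBXO genes were seen for FBXO38 in KO1 and for FBXO22 and FBXO28 in KO2. FBXO38, reported to act on PD-1 in T cells, read 37.9, 41.6 and 41.3 CPM in KO1, 52.3, 51.4 and 53.2 CPM in KO2, and 56.0, 54.7 and 54.0 CPM in WT. KO1 lay well below the rest. It fell by 0.45 ± 0.05 in KO1 (adjusted p = 6.3e-06) and was at -0.07 in KO2 (adjusted p = 0.249; -0.12 and adjusted p = 0.00629 with the GC trend removed). FBXO22, which recognises KDM4 histone demethylases, read 52.0, 57.9 and 52.6 CPM in KO1, 36.2, 37.4 and 37.6 CPM in KO2, and 58.9, 56.0 and 56.2 CPM in WT. It fell by 0.62 ± 0.05 in KO2 (adjusted p = 1.3e-07), where its chromosome 15 neighbours had a GC-removed median of -0.45; KO1 was at -0.07 (adjusted p = 0.287), and was called down with the GC trend removed (-0.16, adjusted p = 0.00125). FBXO28 fell by 0.33 ± 0.04 in KO2 (adjusted p = 1.3e-05), to 93.5, 93.7 and 99.0 CPM in KO2 against 120, 116 and 125 CPM in WT, and was at 0.11 in KO1 (adjusted p = 0.0563), where it was called without WT replicate 3 or KO1 replicate 1 (0.15), with upper quartile scaling (0.12) and with a minimum of 1 CPM in 3 libraries (0.11). FBXO25, the closest relative of FBXO32, fell by 0.29 ± 0.09 in KO2 (adjusted p = 0.0156), a call lost without WT replicate 3 (-0.26) or KO2 replicate 2 (-0.27). In KO1 the GC-removed value of FBXO25 was -0.22 (adjusted p = 0.0349). FBXO5 (EMI1, an inhibitor of the anaphase-promoting complex; chosen after its values were seen) was at -0.14 in KO1 (adjusted p = 0.0634) and 0.11 in KO2 (adjusted p = 0.118), and was called in KO1 without KO1 replicate 2 (-0.20) or KO2 replicate 3 (-0.15). It was also called down in KO1 with the GC trend removed (-0.24, adjusted p = 1.6e-05) or a minimum of 1 CPM in 3 libraries (-0.15, adjusted p = 0.0412), and up in KO2 with upper quartile scaling (0.15, adjusted p = 0.0424). In all, 9 of 32 tested FBXO genes rose and 2 fell in KO1, and 10 rose and 9 fell in KO2. Of all tested genes, 18.0% rose and 16.8% fell in KO1, and 24.7% rose and 24.7% fell in KO2.

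In KO2, the changes of some genes lay near those of their neighbours on the chromosome. With the GC trend removed, the Pearson correlation across 69 genes between a gene's log2 change and the median of its 20 neighbours was 0.43 in KO2 (0.55 without FBXO44) and 0.19 in KO1; it is given as a description, since members on 1 chromosome share neighbours. Of the 24 genes that fell in KO2, 11 had neighbours with a median below -0.20, and 1 of the 19 that rose had neighbours above 0.20. These calls are from the fit without GC removal, while the neighbour medians are GC-removed. The same share was not computed over all tested genes, so nothing is read from these counts. FBXL22, a low gene chosen after its values were seen, had mean levels of 0.154 CPM in KO1, 0.0606 CPM in KO2 and 0.204 CPM in WT. Its KO2 log2 change was -1.72 ± 0.47 (adjusted p = 0.0071). That value rests on 3, 3 and 5 counts in KO2, at the edge of detection, so the closeness to its neighbours is imprecise. Of its exon bases, 26.6% overlap USP3-AS1 on the other strand. KDM2B, at -0.42 in KO2, had neighbours at -0.30. FBXW2, chosen after its values were seen, showed the reverse. With the GC trend removed it was at -0.15 in KO2 (adjusted p = 0.00129) while its neighbours had a median of 0.55. In the main fit FBXW2 was at -0.10 in KO2 and was not called (adjusted p = 0.0683). Copy number was not measured, and its part in these values was not tested.

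The companion genes of the ligase were described from lists chosen with earlier results known. Of the 8 other cullins and RING partner, 3 rose and 2 fell in KO1, and 1 rose and 4 fell in KO2. For this list and those after it, the shares of all genes tested were 18.0% up and 16.8% down in KO1, and 24.7% up and 24.7% down in KO2. CUL7 fell in both clones, by 0.73 ± 0.07 in KO1 (adjusted p = 1.0e-06) and 0.82 ± 0.07 in KO2 (adjusted p = 1.1e-07), where its neighbours had medians of -0.52 and -0.49. CUL4B rose by 0.32 ± 0.05 in KO1 (adjusted p = 1.4e-04) and fell by 0.66 ± 0.05 in KO2 (adjusted p = 3.5e-08), beside neighbours at 0.30 and -0.61. CUL3 rose by 0.45 ± 0.05 in KO2 (adjusted p = 4.9e-06), beside neighbours at 0.57, and was at -0.03 in KO1 (adjusted p = 0.748; -0.12 and adjusted p = 0.00783 with the GC trend removed). Of the 3 adaptors of the other cullins, 2 fell in KO1 and 1 fell in KO2. Among them, ELOB fell by 0.42 in KO1 (adjusted p = 0.0205) and 0.64 in KO2 (adjusted p = 0.00153), the KO1 call being lost without KO1 replicate 2 (-0.35) or 3 (-0.39). GC-removed values of ELOB were -0.19 in KO1 (adjusted p = 0.00125) and -0.37 in KO2 (adjusted p = 2.4e-07).

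For the 9 COP9 signalosome subunits beside COPS5, 2 rose and 4 fell in KO1, and 4 rose and 2 fell in KO2. COPS8 rose by 0.21 ± 0.04 in KO1 (adjusted p = 0.00176) and 0.54 ± 0.04 in KO2 (adjusted p = 7.9e-08), with neighbours at -0.04 and 0.52; removing the GC trend left 0.13 in KO1 (adjusted p = 0.00401). COPS2 rose by 0.22 in KO1 (adjusted p = 0.0219) and fell by 0.41 in KO2 (adjusted p = 2.0e-04); the KO1 call was lost without WT replicate 2 (0.20) or 3 (0.23) or KO1 replicate 2 (0.14), and its GC-removed value was 0.11 (adjusted p = 0.005). Of 9 genes of NEDD8 conjugation and removal, 2 rose and 1 fell in KO1, and 2 rose and 4 fell in KO2. UBE2F, which charges CUL5 with NEDD8, rose by 0.67 ± 0.07 in KO2 (adjusted p = 1.6e-06), beside neighbours at 0.49. NAE1, a subunit of the NEDD8-activating enzyme, fell by 0.36 ± 0.05 in KO2 (adjusted p = 1.8e-05) with neighbours at -0.06. In KO1 NAE1 was at -0.15 (adjusted p = 0.029), and at -0.22 with the GC trend removed (adjusted p = 3.0e-05). That KO1 call was lost under several settings. Among them were the replicate block (-0.15) and the omission of WT replicate 1 or 3 or of KO1 replicate 1 or 3 (-0.13 to -0.10).

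Among 10 ubiquitin-conjugating enzymes and cofactors of SCF, 1 rose and 1 fell in KO1, and 3 fell in KO2. GLMN, which caps RBX1, fell by 0.66 ± 0.08 in KO2 (adjusted p = 3.5e-06) with neighbours at 0.07, and was at -0.01 in KO1 (adjusted p = 0.955). CDC34, the enzyme that extends ubiquitin chains on SCF, fell by 0.26 in KO1 (adjusted p = 0.00955) and 0.51 in KO2 (adjusted p = 2.8e-05); with the GC trend removed it was at 0.10 (adjusted p = 0.263) and -0.06 (adjusted p = 0.439), and the KO1 call was lost without WT replicate 2 (-0.17). None of the 3 tested F-box genes with symbols of another form (ECT2L, LMO7 and LRRC29) was called by edgeR or by DESeq2 in either clone, and 0 of the 3 had an unadjusted p under 0.05; LMO7 was called with the GC trend removed, at -0.11 in KO1 and -0.12 in KO2.

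Transcripts of proteins reported as FBXL12 substrates were also measured. FANCD2, the DNA repair protein named in the study's title, rose by 0.18 ± 0.05 in KO1 (adjusted p = 0.0116) and fell by 0.25 ± 0.05 in KO2 (adjusted p = 7.9e-04), where its neighbours had a median of -0.55. XRCC5 (Ku80) fell by 0.18 ± 0.04 in KO1 (adjusted p = 0.00252) and rose by 0.55 ± 0.04 in KO2 (adjusted p = 2.1e-08), beside neighbours at 0.63. CAMK1 fell by 0.54 ± 0.09 in KO2 (adjusted p = 1.8e-04), beside neighbours at -0.38, and was at -0.09 in KO1 (adjusted p = 0.465). CDKN1C and ALDH3A1 did not pass the count filter and were not tested. ALDH3A1 had 4, 5 and 44 counts in KO2, 0 in each KO1 library and 2, 1 and 1 in WT. Most of its counts thus came from 1 KO2 library. FBXL12 acts on proteins, which were not measured here.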

How the data were processed

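Total RNA of 9 samples was made into TruSeq libraries, per the labels' protocols. The submitters' processing notes name Trim Galore, HISAT2 and the builds hg38, GRCm38 and mm10, with no role; for the counting tool and its use of strand, the sources used here name nothing. The deposited values are raw counts per gene symbol, 1 table per library, which the authors had not normalized. The members and the companion lists were chosen with earlier results of these data known.

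All groups were fitted together with edgeR 4.0.16 (R 4.3.3; TMM scaling, filterByExpr, robust quasi-likelihood fit, 1 mean per group), with 17759 genes tested and genes called at an adjusted p under 0.05. CPM values of the members and the companion genes are TMM-scaled. Those of the marker genes and of the limit of 3 counts are scaled to library totals alone. Alternatives were upper quartile scaling, DESeq2 1.42.0, other filters, a replicate block, only the groups compared, removal of each library's GC trend (lowess, span 0.3) and leaving out each library. Gene positions, GC and exon length came from GENCODE 29. Neighbours were the 20 nearest protein-coding genes averaging 2 or more in log2 CPM. Genes named by rule were FBXL12 and the 13 listed genes, up to 6 called genes in each direction per clone and 3 between clones (mean log2 CPM of at least 1, libraries not overlapping), the 5 highest in WT, the 5 most like FBXL12 and up to 3 per companion list; others are marked. The values of 1 member are not reported here, though it is counted among the members. No 2 libraries agreed within sampling noise. The fit was tested on simulated counts. Intervals of counts cover counting error only.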

Additional observations from a re-analysis of the deposited data

Results flagged for a closer look

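The clones differed from each other in 32 of the F-box and SCF genes named, tested as KO1 minus KO2 with edgeR (log2 scale, adjusted p under 0.05). Over all tested genes, 23.9% were higher in KO1 than in KO2 and 24.9% were lower. Some of the genes were named because they differed between the clones, so nothing is read from their number. Higher in KO1 were FBXO39 (2.10), FBXO32 (1.60), FBXL22 (1.33), CAND2 (0.84), FBXL12 (0.70), FBXL6 (0.64), FBXO22 (0.55), FBXL19 (0.55), KDM2B (0.45), FBXO21 (0.45), FBXO28 (0.45), FBXW8 (0.41), FBXL20 (0.33), FBXL2 (0.24), FBXO11 (0.16), FBXL5 (0.15) and SKP1 (0.15). Lower in KO1 were FBXO44 (-3.52), FBXO36 (-1.48), FBXO6 (-1.38), FBXL16 (-1.13), FBXO17 (-0.84), FBXL18 (-0.83), FBXO10 (-0.67), FBXO27 (-0.55), FBXO38 (-0.38), FBXL17 (-0.32), CCNF (-0.25), FBXO5 (-0.25), COPS5 (-0.24), BTRC (-0.22) and FBXO7 (-0.11). The calls of FBXO7, FBXL22, FBXL19, FBXO11, FBXL2, FBXL5, SKP1 and CAND2 were each lost without at least 1 single library. FBXO44 passed the count filter only through KO2, where it was high, so its call is a description. Among these 32 genes, FBXO32 is the one with called changes of opposite direction in the clones. Of the companion genes and reported substrates, higher in KO1 were CUL4B (0.98), GLMN (0.65), COPS2 (0.62), UBE2D1 (0.46), CAMK1 (0.45), FANCD2 (0.42), DCUN1D5 (0.41), CDC34 (0.25) and NAE1 (0.22), and lower in KO1 were DDB1 (-0.14), COPS6 (-0.27), COPS8 (-0.33), CUL3 (-0.48), UBE2F (-0.55) and XRCC5 (-0.73). CUL4B, COPS2, FANCD2 and XRCC5 among them also had called changes of opposite direction. With 1 clone each, a difference between clones cannot be told apart from a difference between the disruptions they carry. With 3 libraries per group, no search for a single outlying library was made.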

How the results depend on the processing

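Leaving out each of the 9 libraries in turn gave 9 to 19 genes up and 6 to 12 down in KO1 against WT, 15 to 21 up and 20 to 25 down in KO2 against WT, and 19 to 24 up and 16 to 20 down in KO1 against KO2. Under the other settings the counts were 10 to 14 up and 8 to 15 down in KO1, 18 to 24 up and 21 to 29 down in KO2, and 20 to 26 up and 17 to 24 down between the clones. With the replicate block they were 10 up and 8 down in KO1, 19 up and 23 down in KO2, and 23 up and 19 down between the clones. The labels do not say that equal numbers mark a shared culture, and same-numbered libraries deviated together in some pairs and apart in others (correlations of -0.53 to 0.48), so the numbers were not taken to pair libraries. Of 3194 values of single genes under the alternatives, 3043 stayed on the same side of the threshold, 96 lost and 52 gained a call, and 3 with a call under either setting turned direction, all with the GC trend removed: CCNF in KO2 (0.14), UBE2M in KO2 (0.04) and CDC34 in KO1 (0.10); the cause was not tested. Values not called under either setting also turned, such as FBXL19 in KO1 (0.12 without the GC trend), and are not counted as turned. FBXL12 ranged from -1.23 to -0.98 in KO1 and from -1.97 to -1.64 in KO2 over all settings, FBXO32 from 0.94 to 1.01 and from -0.66 to -0.58, and FBXO17 in KO2 from 0.82 to 1.10. A count of 3, the limit that a count of 0 allows, was 0.0309 to 0.0572 CPM. FBXO2, FBXO40, FBXO47, FBXO44 in WT and FBXL22 in KO2 thus lie at the edge of detection.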
